A study of Mus musculus with 3 samples.

Results

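This account covers 9 genes of the Ras switch in mouse JB6 P+ cells. They are the small GTPase genes Hras, Nras, Rras and Rras2, the exchange factor genes Sos1, Sos2 and Rasgrf2, and the GTPase-activating protein genes Nf1 and Rasa1. They were taken by gene symbol from the 24421 genes of the deposited count table, and all 9 were found. The list was selected on earlier results from these same counts, with the reads and fold changes of the 3 libraries known, so every value below describes these libraries and none is a test. JB6 P+ is an established epidermal line that tumour promoters can transform, and the question of the study was how CDDO, a synthetic oleanane triterpenoid, alters the response to the phorbol ester TPA.

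Ras proteins are membrane-bound switches that are active with GTP and inactive with GDP. Exchange factors such as SOS load them with GTP downstream of receptors, and GTPase-activating proteins such as neurofibromin speed GTP hydrolysis and turn them off. Active Ras signals to the RAF, MEK and ERK kinases, to PI3 kinase and to Ral exchange factors. In mouse skin, mutation of Hras is the classical initiating event of chemical carcinogenesis, and phorbol esters act as promoters through protein kinase C and RasGRP proteins.

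There were 3 libraries of total RNA, 1 per group. The first was from cells given 10 ng/mL TPA together with 50 nM CDDO, the second from cells given 10 ng/mL TPA, and the third from control cells. Treated cells were dosed every second day for 5 days, with serum at 1%. The labels do not say if control cells had this medium, the same time in culture or a vehicle, so TPA, serum, time and vehicle cannot be told apart in a comparison with control. The count column matched to CDDO+TPA names CDDO but not TPA, and statements on CDDO+TPA rest on that match. The libraries held 7872089, 7813035 and 8190078 reads assigned to genes for CDDO+TPA, TPA and control. CPM below is the read count scaled to library size, and 1 read was worth 0.125 to 0.127 CPM. With no replicate, no spread between cultures could be measured, and every interval is a 95% interval of counting error only. The line is labelled as skin epithelial, but Krt5, Krt1, Krt18 and Epcam had 0 reads in each library, and 13 keratinocyte markers summed to 16.0 CPM in CDDO+TPA, 44.4 in TPA and 21.0 in control. The 12 fibroblast and mesenchymal markers summed to 2528, 2016 and 3601 CPM in the same order. Fn1 was the largest part of that sum, at 1391, 1087 and 1519 CPM, and Thy1 and Lum had at most 1 read in any library. Its members differed, with Col5a2 at 651, 221 and 4465 reads and Pdgfra at 607, 278 and 42.

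The size rule used throughout asks for a log2 fold change of 1 or more in either direction together with a CPM ratio whose counting interval leaves out 1. Each of the 9 genes had at least 1 CPM in at least 1 library, the requirement for comparison, which 13100 genes met. Rasgrf2 met it clearly in the TPA library, at 17.1 CPM, and only barely in CDDO+TPA, at 1.01 CPM (0.438 to 2.00). It thus entered mainly through the library where it was high, and its direction is no independent finding. The other 8 met it in all 3. In TPA against control, 1 of the 9 genes was higher past the rule (Rasgrf2) and 1 was lower (Rras2), while of all genes compared 9.57% were higher and 5.91% lower. In CDDO+TPA against TPA, 0 were higher and 1 was lower (Rasgrf2), against 7.87% and 7.78% of all genes. In CDDO+TPA against control, 0 of 9 were higher and 0 lower, against 8.02% and 3.37% of all genes. The median log2 fold changes of the 9 genes were 0.06, -0.15 and -0.10 in these 3 comparisons, and those of all genes compared were 0.00, 0.01 and -0.02. With 9 genes, counts of 0 or 1 lie near these background shares, and nothing is read from them about the genes as a group.

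**Figure D1:**
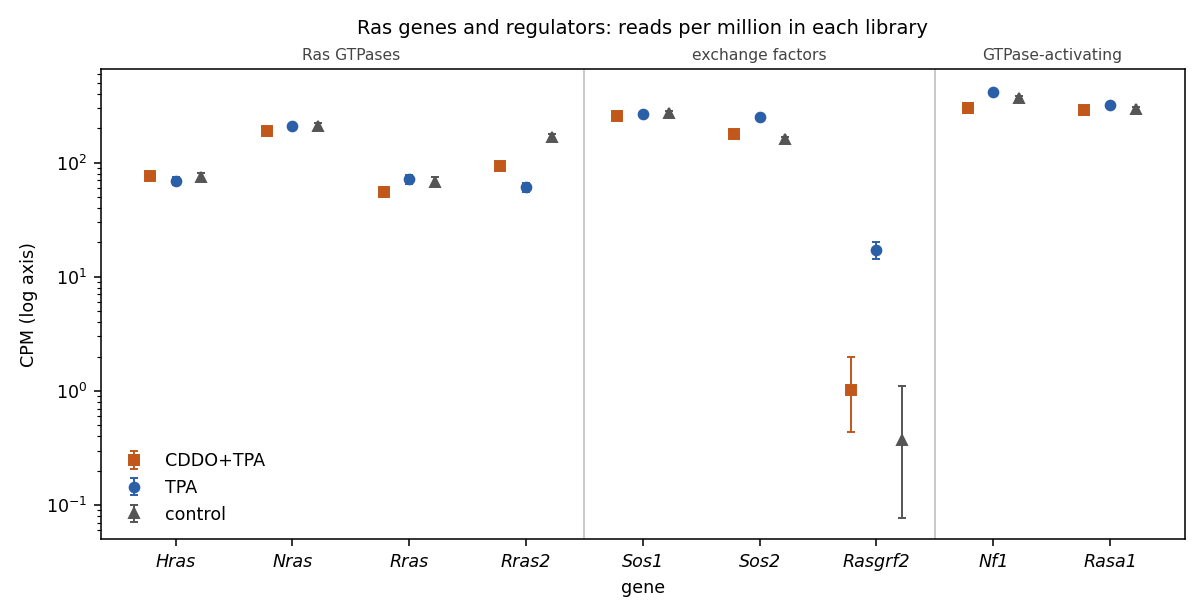
CPM on a log axis for each of the 9 genes in the CDDO+TPA (square), TPA (circle) and control (triangle) libraries, with exact Poisson 95% intervals of counting error. Rasgrf2 was at 17.1 CPM in TPA, against 1.01 in CDDO+TPA and 0.374 in control, and Rras2 was lowest in TPA.

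Among the GTPase genes, Rras2 differed most. It encodes a Ras-related protein, also called TC21, which signals to PI3 kinase, from chromosome 7, 114046782 to 114117781, minus strand (mm10, as are all positions here). Rras2 had 739 reads in CDDO+TPA, 487 in TPA and 1347 in control, or 93.6, 61.1 and 168 CPM. The TPA library was therefore lowest, the control highest, and the CDDO+TPA library lay between them without overlap of the counting intervals. In TPA it was 2.75-fold lower than in control (interval 2.48 to 3.06), a log2 fold change of -1.46. In CDDO+TPA it was 1.53-fold higher than in TPA (1.36 to 1.72) and 1.80-fold lower than in control (1.64 to 1.97), neither past the size rule. In these bulk libraries, fewer cells that express a gene and less RNA per cell cannot be told apart.

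Per exon length, Rras2 had the lowest value of the 4 GTPase genes in the TPA library, where its interval overlapped that of Hras, and the highest in the control library, where its interval overlapped that of Rras. In RPKM, the CPM per kilobase of exon, Rras2 stood at 41.2 in CDDO+TPA, 26.9 in TPA and 73.9 in control. Its share of the summed RPKM of the 4 GTPase genes was 23.4% in CDDO+TPA, 15.0% in TPA and 32.7% in control. That sum was 176 RPKM in CDDO+TPA, 179.5 in TPA and 226 in control.

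Rras encodes R-Ras, a GTPase known for its part in integrin activation, from chromosome 7, 45018007 to 45021644, plus strand. It had 439, 568 and 547 reads in CDDO+TPA, TPA and control, or 55.6, 71.3 and 68.3 CPM. The CDDO+TPA library was low, at 0.780 of TPA (0.687 to 0.885) and 0.815 of control (0.717 to 0.926). Between TPA and control the interval of the ratio, 0.927 to 1.18, held 1.

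Nras, a classical Ras gene on chromosome 3 (103058285 to 103067914, plus strand), had 1503 reads in CDDO+TPA, 1665 in TPA and 1693 in control, or 190 CPM, 209 CPM and 211 CPM. Its ratio of TPA to control was 0.989 (0.924 to 1.06), so no difference was detectable at this depth. In CDDO+TPA it stood at 0.911 of TPA (0.849 to 0.977) and 0.901 of control (0.840 to 0.967). Hras, the gene mutated in chemically induced mouse skin tumours, lies on chromosome 7 (141189934 to 141194004, minus strand). It had 601, 552 and 597 reads in the same order, or 76.2, 69.3 and 74.5 CPM. All 3 intervals of its ratios held 1, with 1.10 (0.977 to 1.24) for CDDO+TPA over TPA, 0.930 (0.827 to 1.05) for TPA over control, and 1.02 (0.911 to 1.15) for CDDO+TPA over control. Counts per gene carry no information on mutation or on GTP loading.

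**Figure D2:**
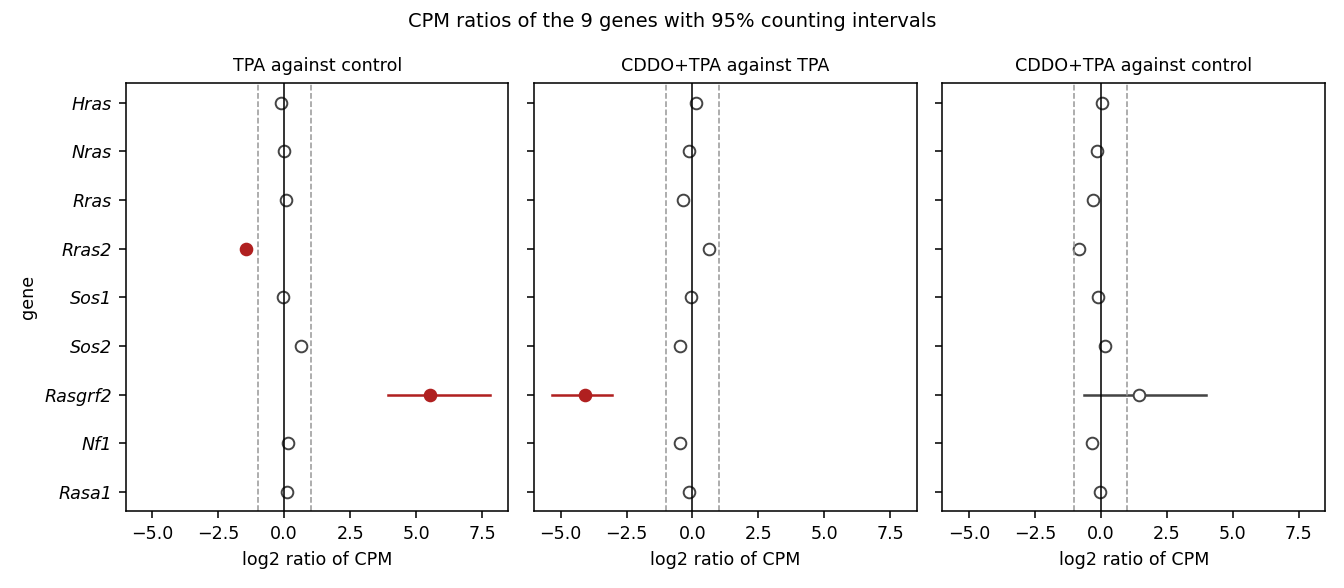
Log2 ratio of CPM for each gene in TPA against control, CDDO+TPA against TPA and CDDO+TPA against control, with 95% counting intervals as lines. Filled red points are past the size rule, and dashed lines mark a log2 ratio of 1 in either direction: Rasgrf2 and Rras2 in the first comparison, Rasgrf2 in the second, none in the third.

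Rasgrf2 was the exchange factor gene with the widest difference. It encodes a calcium- and calmodulin-regulated exchange factor for Ras and Rac that is best known from brain. It had 8 reads in CDDO+TPA, 136 in TPA and 3 in control, or 1.01, 17.1 and 0.374 CPM. The TPA library alone was high, and the CDDO+TPA and control libraries both lay within a few reads of the floor of 3 counts. The ratio of TPA to control was 45.6 (15.3 to 224), with a log2 fold change of 4.79 that ran between 4.14 with a prior count of 5 and 5.29 with one of 0.5. In CDDO+TPA it was 16.8-fold lower than in TPA (8.31 to 39.8), and the ratio of CDDO+TPA to control, 2.71, had an interval of 0.650 to 15.8 that held 1.

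Per exon length of the counted model, Rasgrf2 was a minor exchange factor transcript in every library. That model, described below, leaves out exons of the gene, so its full level is not known. It stood at 0.173 RPKM in CDDO+TPA, 2.92 in TPA and 0.0641 in control, while Sos1 and Sos2 stood between 28.4 and 44.5 RPKM. Its share of the summed RPKM of the 3 exchange factor genes was 0.288% in CDDO+TPA, 3.78% in TPA and 0.109% in control. Of the 7 neuronal markers, Rbfox3, Snap25, Stmn2 and Gap43 had 0 reads in each library, and the 7 together summed to 31.3 CPM in CDDO+TPA, 21.0 in TPA and 28.2 in control. Map2 made up most of that sum and was lowest in TPA, at 205, 110 and 190 reads, while Tubb3, the other neuronal marker compared, was highest in TPA, at 37, 56 and 34 reads. The keratinocyte marker sum given above was highest in TPA as Rasgrf2 was, but its members differed. Itgb4, at 26, 185 and 23 reads in CDDO+TPA, TPA and control, gave 23.2 of the 44.4 CPM in TPA, and Sfn had 26, 78 and 24 reads. Dsp was also highest in TPA, at 3, 10 and 3 reads, and Krt8 had 8, 7 and 2 reads. Krt10 was highest in control instead, at 52, 73 and 104 reads. Dsg3, too low to be compared, had 4, 0 and 6 reads. Whether this bears on Rasgrf2 was not tested.

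Rasgrf2, with a mean of 6.15 CPM over the 3 libraries, is of low abundance as counted, and the background differs with abundance. Of the 3210 genes compared with a mean under 10 CPM, 27.2% were higher and 9.28% lower in TPA against control. Of the 9890 genes with a mean of at least 10 CPM, 3.85% were higher and 4.81% lower. In CDDO+TPA against TPA, 15.9% of the genes under 10 CPM were higher and 24.7% lower, and of the more abundant genes 5.28% were higher and 2.30% lower. Low genes entered only if a library reached 1 CPM, so these shares describe genes already picked for being present somewhere.

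The counted model of Rasgrf2 is short. The deposited annotation places it on the minus strand of chromosome 13 from 91880407 to 91988042 in mm10, in 15 exon blocks over 5843 bases. GENCODE vM21, on the same assembly, extends the gene to 92131656, with 18 of its 34 exon blocks beyond the deposited end and a transcript, Rasgrf2-205, at 91880400 to 91987989. Reads on exons beyond that end are not in the count, and which transcripts were present was not tested. No other gene of the deposited annotation overlaps it.

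The RefSeq promoter window of Rasgrf2 belongs to the long form, whose start at 92131828 lies outside the deposited model. It is shown with that of Rras2, whose start equals the deposited one, because these are the genes past the size rule. Each line runs 5′ to 3′ on the minus strand of GRCm38.p6, the assembly of mm10, with the 250 bases before the start site in lower case and the 50 bases from it in capitals. Windows are chr13:92131779-92132078 for Rasgrf2 and chr7:114117732-114118031 for Rras2.
Rasgrf2: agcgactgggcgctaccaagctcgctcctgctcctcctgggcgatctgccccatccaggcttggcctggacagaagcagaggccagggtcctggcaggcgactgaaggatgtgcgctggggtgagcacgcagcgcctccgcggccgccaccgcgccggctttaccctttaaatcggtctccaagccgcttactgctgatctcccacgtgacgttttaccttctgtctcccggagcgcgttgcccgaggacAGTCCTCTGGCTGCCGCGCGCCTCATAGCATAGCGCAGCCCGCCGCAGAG
Rras2: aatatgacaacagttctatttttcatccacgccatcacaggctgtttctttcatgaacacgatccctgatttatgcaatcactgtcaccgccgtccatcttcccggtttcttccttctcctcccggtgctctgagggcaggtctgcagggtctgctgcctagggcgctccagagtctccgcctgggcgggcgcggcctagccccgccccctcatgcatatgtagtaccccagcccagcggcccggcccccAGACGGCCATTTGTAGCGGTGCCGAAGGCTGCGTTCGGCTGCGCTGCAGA

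The phorbol ester response element, searched as TGAGTCA or TGACTCA, which are each other's reverse complement and so cover both strands, was absent from both windows. It was also absent from the other 9 RefSeq windows of the 9 genes, and it was present in 5.20% of 32851 promoter windows. This says only that these letters are not in these windows. The CG dinucleotide occurs 28 times in the Rasgrf2 window and 20 times in the Rras2 window, against a median of 7 over all windows, and the GC content is 66.0% and 60.3%, against a median of 52.7%. Among the 9 genes the richest window is that of Sos2, with 54 CG dinucleotides and 82.7% GC.

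**Figure D3:**
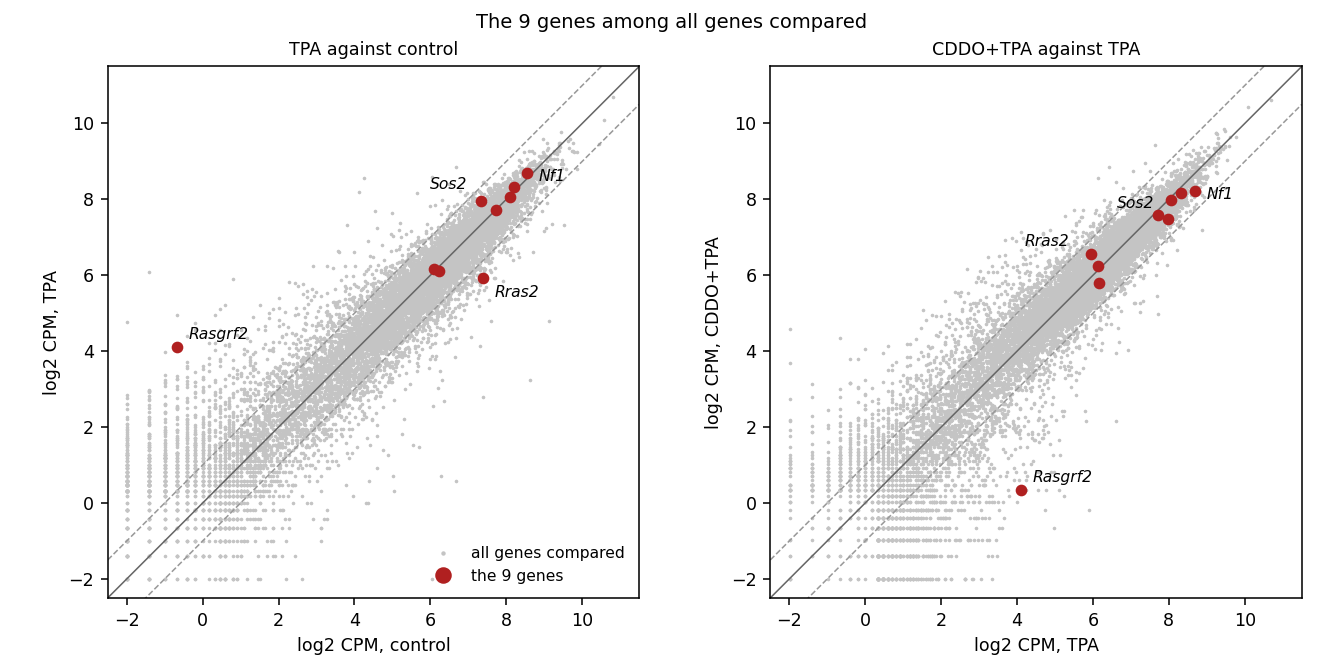
Log2 CPM of the 13100 genes compared (grey) and of the 9 genes (red), TPA against control on the left and CDDO+TPA against TPA on the right, with lines of equality (solid) and of a log2 difference of 1 (dashed). Rasgrf2 lies far above the line on the left and far below it on the right, Rras2 lies below it on the left, and the other 7 stay within the dashed lines in both.

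Of the 24421 genes counted, Rasgrf2 was 1 of 8 with at least 100 reads in TPA and at most 10 in each of the other libraries. That cut was chosen after its values were seen. The others were B230312C02Rik, Best2, Bhlha15, Cpxm1, Lad1, Rinl and Siglec1. With the same cut on pairs of libraries, 21 genes were high in TPA and low in control, and 8 were high in control and low in TPA. Against CDDO+TPA, 16 were high in TPA and low in CDDO+TPA, and 8 were the other way round. By Euclidean distance over the log2 fold changes of the first and second comparisons, the 5 nearest of 13099 genes were 4931409K22Rik (0.05), Muc2 (0.20), Cpxm1 (0.44), Hhatl (0.59) and Adam33 (0.65). These distances rest on 3 libraries and, at such low counts, on the prior count added before taking logs. Muc2, a gel-forming mucin gene, had 17 reads in CDDO+TPA, 243 in TPA and 8 in control. Cpxm1, a carboxypeptidase-like gene, had 8, 185 and 5 reads in the same order.

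The nearest genes on either side of Rasgrf2 differed from each other. Ckmt2, a mitochondrial creatine kinase gene 3521 bases away, had 1 read in CDDO+TPA, 2 in TPA and 0 in control. Msh3, a mismatch repair gene on the same strand, lies 223838 bases beyond the deposited end of Rasgrf2, at 92211881 to 92355003. It had 757 reads in CDDO+TPA, 1811 in TPA and 793 in control, or 95.9, 227 and 99.0 CPM. The TPA library was high for Msh3 too, at 2.30-fold over control (2.11 to 2.50), and CDDO+TPA stood at 0.422 of TPA (0.387 to 0.459), both past the size rule.

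Sos2 was the SOS gene that differed, short of the size rule. Sos1 and Sos2 encode the ubiquitous exchange factors that GRB2 brings to activated receptors. Sos2 lies on chromosome 12 (69583761 to 69681852, minus strand) and Sos1 on chromosome 17 (80393752 to 80480453, minus strand). Sos2 had 1403 reads in CDDO+TPA, 1989 in TPA and 1279 in control, or 178 CPM, 249.7 CPM and 159.6 CPM. The TPA library was high, at 1.56-fold over control (1.46 to 1.68). In CDDO+TPA it stood at 0.712 of TPA (0.664 to 0.763) and was 1.11-fold higher than in control (1.03 to 1.20).

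Sos1 was nearly level, with 2003 reads in CDDO+TPA, 2121 in TPA and 2175 in control, or 254 CPM, 266 CPM and 271 CPM. The interval of its ratio held 1 for CDDO+TPA over TPA (0.896 to 1.01) and for TPA over control (0.924 to 1.04), and stood just under 1 for CDDO+TPA over control (0.880 to 0.994). That last interval ended at a log2 ratio of -0.0087. The log2 fold change itself ran from -0.097 to -0.054 with other scalings and prior counts, so whether the interval holds 1 depends on the scaling. Sos2 exceeded Sos1 per exon length in CDDO+TPA (31.7 against 28.5 RPKM) and in TPA (44.5 against 29.9 RPKM), without overlap of their intervals, and the intervals overlapped in control (28.4 against 30.4 RPKM).

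Nf1 and Rasa1, the genes that encode the off-switches, differed less than Rasgrf2 and Rras2. Nf1 encodes neurofibromin, whose loss raises Ras activity. It had 2357 reads in CDDO+TPA, 3286 in TPA and 2980 in control, or 299 CPM, 413 CPM and 372 CPM. The CDDO+TPA library was lowest, 1.38-fold lower than TPA (1.31 to 1.46) and 1.25-fold lower than control (1.18 to 1.32). TPA exceeded control by a ratio of 1.11 (1.06 to 1.17). Nf1 (chromosome 11, 79339892 to 79581609, plus strand) holds 5 genes of the other strand within its span, AU040972, Omg, Gm21975, Evi2b and Evi2a, which share 0 exon bases with it. Those 5 had at most 11 reads in any library.

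Rasa1 encodes p120 RasGAP, which is recruited to phosphorylated receptors, from chromosome 13, 85214699 to 85289486, minus strand. It had 2273, 2538 and 2375 reads in CDDO+TPA, TPA and control, or 288 CPM, 319 CPM and 296 CPM. TPA was slightly higher than control, by a ratio of 1.08 (1.02 to 1.14), and CDDO+TPA stood at 0.904 of TPA (0.854 to 0.957). For CDDO+TPA over control the interval, 0.917 to 1.03, held 1. Summed over both genes the level was 81.7 RPKM in CDDO+TPA, 97.3 in TPA and 89.5 in control, which is 1.35, 1.26 and 1.52 times the sum of the 3 exchange factor genes. These sums leave out the other GTPase-activating and exchange factor genes described below. One of them, Rasa3, averaged 45.6 RPKM over the libraries, against 30.5 for Nf1, and was highest in CDDO+TPA. The ratios therefore hold for the named genes only and do not describe all off-switches or exchange factors.

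**Figure D4:**
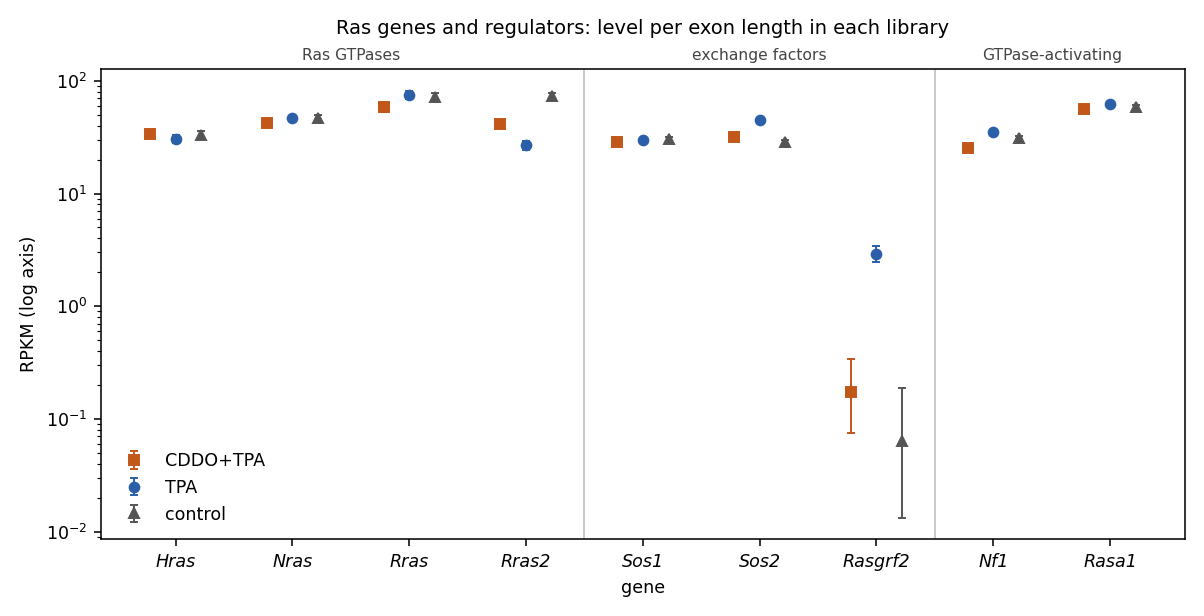
Level per exon length (RPKM, log axis) of the 9 genes in CDDO+TPA (square), TPA (circle) and control (triangle), with exact Poisson 95% intervals. Leaving out Rasgrf2, the 8 genes lie between 25.2 and 75.4 RPKM in the 3 libraries.

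Per exon length, the 8 genes other than Rasgrf2 lay above the median of all genes compared, which was 17.1 RPKM in CDDO+TPA, 16.1 in TPA and 16.9 in control. In CDDO+TPA the order was Rras, Rasa1, Nras, Rras2, Hras, Sos2, Sos1, Nf1 and Rasgrf2, with overlapping intervals for the neighbours Rras and Rasa1, Nras and Rras2, and Hras and Sos2. In TPA it was Rras, Rasa1, Nras, Sos2, Nf1, Hras, Sos1, Rras2 and Rasgrf2, with overlap between Nras and Sos2, Hras and Sos1, and Sos1 and Rras2. In control it was Rras2, Rras, Rasa1, Nras, Hras, Nf1, Sos1, Sos2 and Rasgrf2, with overlap between Rras2 and Rras and for each neighbouring pair from Hras to Sos2. Rras, at 58.8, 75.4 and 72.2 RPKM in CDDO+TPA, TPA and control, and Rasa1, at 56.5, 62.5 and 58.1 RPKM, were among the first 3 in every library.

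Counting intervals alone excluded 1 for many of these genes. In TPA against control this held for 5 of 9, where 62.9% of all genes compared did so. In CDDO+TPA against TPA it held for 7 of 9, against 63% of all genes, with 1 interval above 1 (Rras2) and 6 below. In CDDO+TPA against control it held for 6 of 9, against 55.8% of all genes. These counts use TMM factors, and intervals that end close to 1, as those of Sos1 did, depend on the scaling. At these depths a counting interval excludes 1 for most genes, and the spread between cultures, which it leaves out, was not measured.

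The wider Ras pathway was described with 7 lists of 124 genes in all, the 9 included. Of the 115 others, 93 were compared. In TPA against control 11 of these were higher and 2 lower past the rule, in CDDO+TPA against TPA 5 were higher and 10 lower, and in CDDO+TPA against control 5 were higher and 1 lower. The shares past the rule, 14.0%, 16.1% and 6.45%, are to be read beside 15.5%, 15.6% and 11.4% of all genes compared. The comparisons share libraries, so a gene high in TPA alone counts in the first as higher and in the second as lower.

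Among the Ras subfamily GTPases, 25 of 35 were compared. In TPA against control 6 were higher and 1 lower, in CDDO+TPA against TPA 0 were higher and 7 lower, and 0 were past the rule in CDDO+TPA against control, with medians of 0.10, -0.16 and -0.15. Of all genes compared, 9.57% were higher and 5.91% lower in the first of these, and 7.87% higher and 7.78% lower in the second. In the third, 8.02% were higher and 3.37% lower. Of those under 10 CPM, 27.2% were higher in the first and 24.7% lower in the second. Rhebl1, a relative of the mTORC1 activator Rheb, had 112 reads in CDDO+TPA, 282 in TPA and 66 in control, and was 4.30-fold higher in TPA than in control (3.28 to 5.71). Rem2, a GTPase that inhibits voltage-gated calcium channels, had 2, 85 and 5 reads, and was 17.1-fold higher in TPA than in control (7.05 to 54.0). The others higher in TPA and lower in CDDO+TPA were Rasd1, Diras1, Rasl10b and Rrad, each under 10 CPM and named after their values were seen, with 10 to 62 reads in TPA. Rem2, Rrad, Rasd1 and Rasl10b reached 1 CPM in the TPA library and in neither of the others, so they entered the comparison through the library where they were high and their direction is no independent finding. Rasl10a had 32, 84 and 49 reads and was lower past the rule in CDDO+TPA against TPA, 2.60-fold (1.71 to 4.04). Rap1b, which controls integrin adhesion and was highest per exon length, had 182 CPM in CDDO+TPA, 180.2 CPM in TPA and 195 CPM in control.

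Among the Ras and Rap exchange factors, 12 of 19 were compared, and 3 were higher and 1 lower in TPA against control, with 2 higher and 2 lower in CDDO+TPA against TPA and 2 higher and 0 lower in CDDO+TPA against control. These are 33.3%, 33.3% and 16.7% of the 12, beside 15.5%, 15.6% and 11.4% of all genes compared, and Rasgrf2 itself is counted in the first and second. Rasgrf2, Rasgrp3, Rasgrp4, Rapgef3 and Rapgef4 had means under 10 CPM, where the background shares given above are higher. Rasgrp4, a diacylglycerol-responsive exchange factor best known from mast cells, had 32 reads in CDDO+TPA, 82 in TPA and 29 in control, and was 2.84-fold higher in TPA than in control (1.84 to 4.51). The 8 leukocyte markers summed to 80.3 CPM in CDDO+TPA, 55.1 in TPA and 28.5 in control, with Ptprc and Cd3e at 0 in each library. Cd68 made up most of that sum, at 71.2, 52.2 and 22.1 CPM, while Lyz2 was lowest in TPA, at 66, 16 and 49 reads, and 3.04-fold lower there than in control, past the size rule. Whether this bears on Rasgrp4 was not tested. Ralgps2, a Ral exchange factor, was lowest in TPA, with 170, 57 and 146 reads, 2.55-fold lower in TPA than in control (1.86 to 3.52) and 3.01-fold higher in CDDO+TPA than in TPA (2.22 to 4.14). Rapgef1, a Rap exchange factor and the most abundant of the list per exon length, had 311 CPM, 284 CPM and 259.8 CPM. The rest of the count, under 10 CPM and named after their values were seen, were Rapgef3 (56, 58 and 25 reads), higher in both comparisons with control, Rasgrp3 (66, 37 and 25 reads), higher in CDDO+TPA against control, and Rapgef4 (9, 1 and 5 reads), higher in CDDO+TPA against TPA. Rapgef4 reached 1 CPM in the CDDO+TPA library alone, where it was high, so its direction is no independent finding.

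Of the GTPase-activating proteins, 8 of 10 were compared. Rasa4, a calcium-responsive Ras inactivator, had 583 reads in CDDO+TPA, 585 in TPA and 265 in control, and was about as high in both treated libraries, 2.23-fold (1.93 to 2.59) and 2.22-fold (1.92 to 2.58) over control. Rasa3, an inactivator of Ras and Rap, had 2076, 1028 and 1370 reads, and was 2.04-fold higher in CDDO+TPA than in TPA (1.89 to 2.20). These were the GTPase-activating genes past the rule, Rasa4 higher in both comparisons with control and Rasa3 higher in CDDO+TPA against TPA, and 0 were lower in any comparison. In each comparison this is 12.5% of the 8, beside 15.5%, 15.6% and 11.4% of all genes compared.

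Between receptors and SOS, 14 of 15 adaptor genes were compared, with 1 higher and 0 lower in TPA against control, 2 higher and 1 lower in CDDO+TPA against TPA, and 1 higher and 0 lower in CDDO+TPA against control. These are 7.14%, 21.4% and 7.14% of the 14, beside 15.5%, 15.6% and 11.4% of all genes compared. Frs3, a docking protein of FGF receptors, had 64 reads in CDDO+TPA, 145 in TPA and 72 in control, 2.24-fold lower in CDDO+TPA than in TPA (1.66 to 3.06). Shc4 had 115, 52 and 60 reads, 2.23-fold higher in CDDO+TPA than in TPA (1.60 to 3.16). Gab3 (4, 8 and 1 reads) and Shc2 (18, 6 and 4 reads), named after their values were seen, made up the rest. Gab3 reached 1 CPM in the TPA library alone and Shc2 in the CDDO+TPA library alone. Each thus entered the comparison through the library where it was high, and its direction is no independent finding. The core adaptor Grb2, which carries SOS to receptors, had 136 CPM, 154 CPM and 159 CPM, and the phosphatase gene Ptpn11, which encodes SHP2, had 328 CPM, 221 CPM and 299 CPM.

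The 14 genes of lipid processing and trafficking, which attach and move the membrane anchor of Ras, held 0 genes past the rule in each comparison. Of all genes compared, 15.5%, 15.6% and 11.4% were past it in the 3 comparisons. Among genes with a mean of at least 10 CPM, as all 14 had, the shares were 8.67%, 7.57% and 6.79%. With 14 genes, nothing is read from a count of 0. Fnta, the shared subunit of farnesyl and geranylgeranyl transferase, had 97.6 CPM in CDDO+TPA, 105 CPM in TPA and 116 CPM in control, and Golga7, a partner of the Ras palmitoyltransferase, had 101 CPM, 110.1 CPM and 123 CPM. Of 21 effector genes compared out of 23, 1 was higher and 1 lower in TPA against control, while CDDO+TPA had 0 higher and 1 lower against TPA and likewise 0 higher and 1 lower against control. These are 9.52%, 4.76% and 4.76% of the 21, beside the same shares of all genes compared. Rgl2, a Ral exchange factor that binds active Ras, had 395, 886 and 373 reads in CDDO+TPA, TPA and control, 2.39-fold higher in TPA than in control (2.11 to 2.70) and 2.22-fold lower in CDDO+TPA than in TPA (1.97 to 2.51). Plce1, a phospholipase C that binds Ras, was the lower gene in both comparisons with control, at 3, 2 and 13 reads, and was named after its values were seen. It reached 1 CPM in the control library alone, where it was high, so its direction is no independent finding. Mapk3, the ERK1 kinase gene, had 144, 151 and 109 CPM, and Mllt4, the afadin gene, had 559, 546 and 479 CPM. In the last list, of 8 regulators of Ras adaptors and stability, Spred3, a membrane protein that restrains Ras signalling, was the 1 gene past the rule. It had 780, 729 and 379 reads and was 2.09-fold higher in CDDO+TPA than in control (1.85 to 2.37). That is 12.5% of the 8, beside 11.4% of all genes compared. In the other comparisons 0 of the 8 were past the rule, beside 15.5% and 15.6%. Cul3, a ubiquitin ligase scaffold, had 165, 180.3 and 191 CPM, and Erbb2ip, which encodes erbin, had 342, 286 and 357 CPM.

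**Figure D5:**
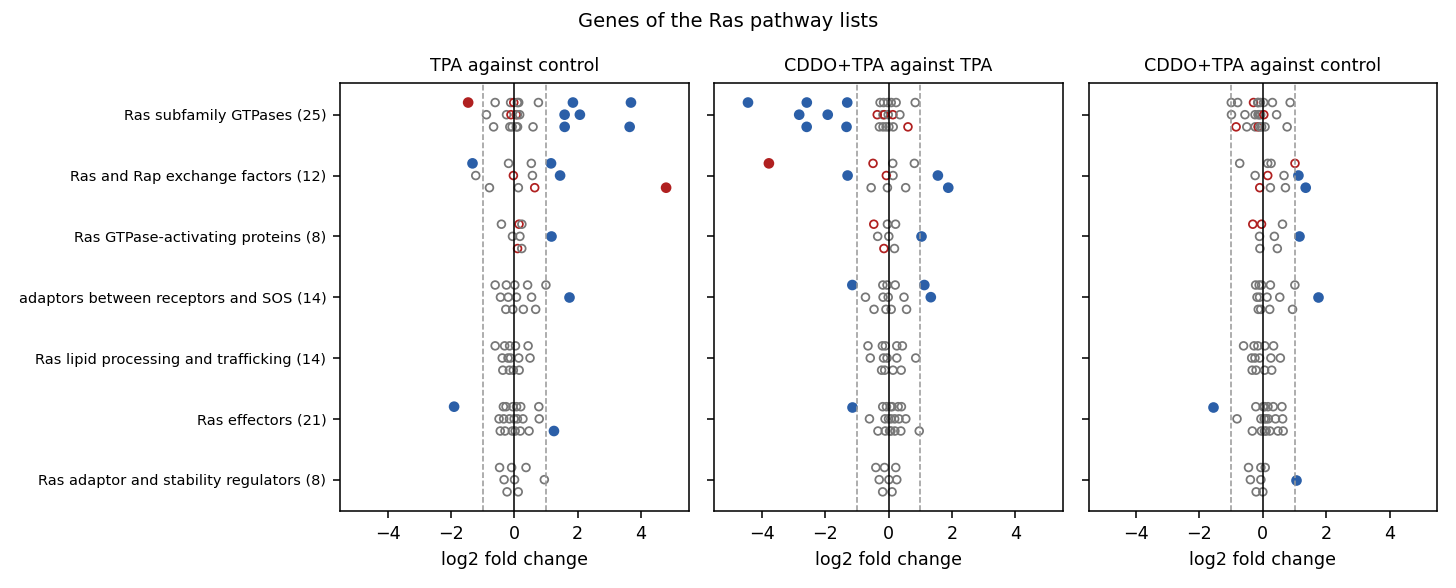
Log2 fold changes of the genes compared in each of the 7 pathway lists, with the number compared in brackets. Filled points are past the size rule, red marks the 9 genes, blue or open grey the others, and dashed lines mark 1 in either direction. The GTPases hold 7 filled points in each of the first 2 panels and 0 in the third, and the lipid processing list holds 0 in each.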

How the data were processed

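The deposited values are raw read counts by gene symbol, without normalization, for 3 libraries of total RNA. Per the file headers, featureCounts 1.5.3 made them with a UCSC gene annotation of mm10, primary alignments kept and no option for strand, pairs or multi-mapping reads. The submitters' processing notes name HISAT2, Picard and DESeq without a version. Per the file headers, the command lists 7 alignment files, of which 3 columns are present, with duplicates marked as removed, by a method not given in the sources used here. Duplicate removal can cap abundant genes, and reads shared with near-identical copies of the Ras genes were not examined.

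Scaling used edgeR 4.0.16 (R 4.3.3) and its TMM factors (1.00, 1.02 and 0.978 for CDDO+TPA, TPA and control). Log2 CPM used a prior count of 2. Ratios are of CPM without it, with Clopper-Pearson intervals of 2 counts, and levels carry Poisson intervals. No p-value was computed, each group being 1 library. RPKM used the deposited exon length. DESeq2 1.42.0 size factors were an alternative.

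The 9 genes and all lists were chosen with earlier results of these data known. Named from the lists were genes past the size rule with at least 10 CPM in a library and the 2 most abundant per length. Afadin and erbin were matched by RefSeq synonyms. The 6 endothelial markers summed to 218, 303 and 66.4 CPM, and the 7 melanocyte and Schwann cell markers to 37.8, 17.7 and 27.3 CPM, in CDDO+TPA, TPA and control. Vwf made up most of the first sum, at 198, 290 and 49.9 CPM. Pecam1 was also highest in TPA, at 5, 13 and 2 reads, but Egfl7 was lowest there, at 153, 89 and 126 reads. Cdh5, Kdr and Tek had at most 3 reads in any library. Mitf made up most of the second sum, at 35.2, 15.9 and 25.3 CPM, and Dct and Sox10 had 0 reads.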

Additional observations from a re-analysis of the deposited data

How the results depend on the processing

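The 27 log2 fold changes of the 9 genes, under 3 other scalings and 2 other prior counts, stayed inside their counting intervals in 135 of 135 cases. Other scalings shift all genes of a comparison by nearly the same small amount. Nf1 in TPA against control ran from 0.149 to 0.212, inside an interval of 0.078 to 0.222. The count was thus largely set by the size of the factors and lends the fold changes no support. The log2 fold change of Rasgrf2 ran between 4.14 and 5.29 in TPA against control and between -3.99 and -3.43 in CDDO+TPA against TPA. The order per exon length changed in 0 positions with TPM or library totals. Where the mean had to reach 10 CPM, Rasgrf2 was not compared, which left 1 of the genes past the size rule in TPA against control (Rras2) and 0 in CDDO+TPA against TPA, while over all genes 857, 749 and 672 were past it in TPA against control, CDDO+TPA against TPA and CDDO+TPA against control, in place of 2028, 2050 and 1493. With a fold of 1.5 as the limit these counts were 3833, 3684 and 2897, and of the 9 genes 2 were past it in CDDO+TPA against TPA (Rasgrf2 and Rras2) and 1 in CDDO+TPA against control (Rras2). Sos2 and Rras2 were among 3 past it in TPA against control. In the lists, Frs3 was past the size rule in TPA against control with other scalings or a prior count of 0.5, and Spred3 with library totals or upper-quartile factors. No paired analysis was possible because each group has 1 library. For Rasgrf2, the 8 and 3 reads in CDDO+TPA and control largely set the width of every interval.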
